A study of Homo sapiens with 61 samples.

Results

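The BH3-only genes encode the proteins that start mitochondrial apoptosis, and 8 of them were followed across the study: HRK, BBC3, BCL2L11, PMAIP1, BMF, BIK, BID and BAD. They were taken by name, by matching each symbol to the gene identifiers of the count tables through GENCODE 29, and all 8 were found among the 58440 gene identifiers of the tables. All libraries were made from neurons that the transcription factor NGN2 drives out of WTC11, a long-established human iPSC line. Experiment 1 used wild type (WT) neurons, DLK KO neurons, neurons with LZK KO, and a line lacking both kinases (DLK LZK double KO, here double KO), each with a doxycycline-driven NGN2 cassette. Experiment 2 used CRISPR interference, which silences a gene at its start, with a Control gRNA (scrambled), ATF2 gRNA or JUN gRNA delivered by lentivirus. Each line was given 5 nM vincristine for 16 hours on day 14, and the groups labelled untreated were given the DMSO vehicle, per the series description. The extraction protocol instead gives a range of days of differentiation that ends at 14. There were 61 libraries in 14 groups, with 4 libraries in each group of experiment 1 and 5 in each group of experiment 2 except the ATF2 gRNA vincristine group, which had 4 (replicates 2 to 5). Whether a knockout line is a single clone, and which part of each gene was removed, were not given in the sources used here.

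BH3-only proteins carry a short helix, the BH3 domain, that binds the guardian proteins of the BCL2 family (BCL2, BCL-XL, MCL1) and, for some of them, the pore-forming effectors BAX and BAK. When enough guardians are occupied the effectors open the outer mitochondrial membrane, cytochrome c leaves and caspases are activated. In neurons several BH3-only genes are switched on by transcription after loss of trophic support or axon injury, through a kinase relay in which DLK (gene MAP3K12) and LZK (gene MAP3K13) act above JNK, and JNK phosphorylates the transcription factors JUN and ATF2. Vincristine binds tubulin and takes microtubules apart, which is a known trigger of this relay in neurons.

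By GENCODE 29 on GRCh38, HRK (ENSG00000135116.9) lies at chr12:116856144-116881441, BBC3 (ENSG00000105327.17) at chr19:47220822-47232766, BMF (ENSG00000104081.13) at chr15:40087890-40108892, BID (ENSG00000015475.18) at chr22:17734138-17774770 and BAD (ENSG00000002330.13) at chr11:64269830-64284704, all on the minus strand. BCL2L11 (ENSG00000153094.22) lies at chr2:111119378-111168447, PMAIP1 (ENSG00000141682.11) at chr18:59899948-59904306 and BIK (ENSG00000100290.2) at chr22:43110748-43129712, all on the plus strand. All 8 are protein coding, and a count covers all exons of a gene.

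The promoters of the 4 members with the largest vincristine folds in WT, leaving aside BIK, are shown because the comparisons turn on ATF2 and JUN, whose binding motifs can be looked for in them. Each sequence is the 250 bases before the RefSeq transcription start (build GRCh38.p14), written 5′ to 3′ on the gene's strand, with motif matches in capitals.
HRK (chr12:116881442-116881691, minus strand): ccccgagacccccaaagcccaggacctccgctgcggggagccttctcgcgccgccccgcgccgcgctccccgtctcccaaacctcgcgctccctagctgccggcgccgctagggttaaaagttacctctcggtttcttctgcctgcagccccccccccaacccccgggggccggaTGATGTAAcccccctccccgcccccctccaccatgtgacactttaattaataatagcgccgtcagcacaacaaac
BBC3 (chr19:47232668-47232917, minus strand): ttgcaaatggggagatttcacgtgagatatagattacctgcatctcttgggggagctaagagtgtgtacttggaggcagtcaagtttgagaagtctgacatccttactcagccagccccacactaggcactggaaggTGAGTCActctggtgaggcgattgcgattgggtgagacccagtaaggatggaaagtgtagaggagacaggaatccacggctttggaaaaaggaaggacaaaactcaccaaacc
BCL2L11 (chr2:111120664-111120913, plus strand): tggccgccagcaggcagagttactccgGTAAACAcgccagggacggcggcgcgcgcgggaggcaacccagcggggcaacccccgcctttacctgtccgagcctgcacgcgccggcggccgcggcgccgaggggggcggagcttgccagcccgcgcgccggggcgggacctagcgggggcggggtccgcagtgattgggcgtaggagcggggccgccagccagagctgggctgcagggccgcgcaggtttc
PMAIP1 (chr18:59899746-59899995, plus strand): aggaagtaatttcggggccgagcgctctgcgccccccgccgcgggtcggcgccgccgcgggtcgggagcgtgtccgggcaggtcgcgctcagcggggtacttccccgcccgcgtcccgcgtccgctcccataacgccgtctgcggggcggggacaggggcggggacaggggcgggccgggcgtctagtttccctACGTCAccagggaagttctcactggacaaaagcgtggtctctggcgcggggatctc
The motifs searched on both strands were the full CRE TGACGTCA, the short CRE TGACGT, the AP-1 site TGANTCA, the ATF/JUN octamer TNACNTCA, the ATF4-type element core TGATGNAA and the FOXO site GTAAACA. The full CRE also counts as a short CRE and as an ATF/JUN octamer. The HRK window held TGATGTAA from base -75 to base -68 before the start, which matched the octamer on the opposite strand and the ATF4-type core on the gene's own strand. The BBC3 window held the AP-1 site TGAGTCA from base -113 to base -107. The BCL2L11 window held the FOXO site from base -223 to base -217, and the PMAIP1 window held a short CRE, as ACGTCA, from base -56 to base -51. Over all 35116 RefSeq windows of the same length, 1.65% held the full CRE, 7.10% the short CRE, 6.57% the AP-1 site, 12.9% the octamer, 3.14% the ATF4-type core and 2.98% the FOXO site. Entries were found for 7 members, in 13 windows, and none of these windows held a full CRE. Both BAD windows, which overlap, held a short CRE. Of the 2 BMF windows, 1 held 2 octamers, and the 5 BID windows held no match. BIK had no entry. These matches describe letters in a window and not binding.

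Library totals ran from 8410729 to 14647819 counts in experiment 1 and from 38925807 to 88392414 counts in experiment 2, so low genes were measured more precisely in the second. Levels are given as CPM, the counts of a gene relative to its library total after TMM scaling. Calls are at an adjusted p under 0.05 from edgeR's quasi-likelihood test, Benjamini-Hochberg adjusted over all 18235 genes tested in experiment 1 or all 20759 in experiment 2. All 8 members entered both fits. The labels do not say that replicates came from separate cultures, so the p-values measure the spread between these libraries. The targeted genes followed their labels. MAP3K12 stood at 23.7 to 31.4 CPM in DLK KO and 16.6 to 22.3 CPM in double KO against 72.8 to 121 CPM in WT. MAP3K13 stood at 30.1 to 37.8 CPM in LZK KO and 26.7 to 32.0 CPM in double KO against 96.8 to 145 CPM in WT. In the Control gRNA libraries of experiment 2 MAP3K13 was at 24.3 to 40.0 CPM, below the WT range of experiment 1. This difference between the experiments was not tested. ATF2 was at 0.106 to 0.997 CPM under its guide against 111 to 158 CPM in the Control gRNA libraries, and JUN at 2.24 to 7.74 CPM against 81.7 to 255 CPM. These genes also differed untreated where they were not the target. JUN was lower in DLK KO (log2 -1.34 ± 0.14 SE, adjusted p = 5.82e-09) and double KO (log2 -1.82 ± 0.14, adjusted p = 7.83e-12) than in WT, and in the ATF2 gRNA libraries than in the Control gRNA ones (log2 -2.08 ± 0.10, adjusted p = 4.18e-16). ATF2 was lower in DLK KO (log2 -0.99 ± 0.11, adjusted p = 5.75e-09). MAP3K12 was lower under the ATF2 gRNA (log2 -0.43 ± 0.05, adjusted p = 3.64e-10) and in LZK KO (log2 -0.26 ± 0.10, adjusted p = 0.0447). The summed level of 8 neuron markers was 5747 to 9197 CPM in experiment 1 and 6014 to 7816 CPM in experiment 2, while the microglia markers summed to at most 1.99 CPM, the mesenchymal markers to at most 3.28 CPM and the astrocyte markers to at most 8.42 CPM. In bulk RNA, fewer cells that express a gene and less RNA of it per cell cannot be told apart.

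Vincristine raised 6 of the 8 members in WT neurons and lowered 1. Over all genes 30.2% were called in this comparison and 15.7% were called higher. The median log2 fold change of the 8 members was 2.26, against 0.00 over all genes tested. In the Control gRNA neurons 5 members rose and 1 fell, where 35.3% of all genes were called and 17.1% were called higher. HRK, BBC3, BCL2L11, PMAIP1 and BMF rose and BID fell in both experiments, which have no library in common. BAD was called in neither.

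HRK (Harakiri), which binds BCL-XL and is best known from neurons deprived of trophic factor, had the largest gain in CPM in both experiments. It stood at 44.2, 44.5, 38.4 and 46.6 CPM in the untreated WT libraries and at 395, 337, 377 and 256 CPM with vincristine, a 7.88-fold rise (log2 2.98 ± 0.12 SE, adjusted p = 2.74e-20). Under the Control gRNA it went from 64.2, 66.4, 55.6, 62.6 and 65.1 CPM to 288, 284, 289, 285 and 277 CPM, a 4.53-fold rise (log2 2.18 ± 0.05, adjusted p = 6.61e-33). Every vincristine library of these lines lay above every untreated one. Per kilobase of exon HRK was also the highest of the 8 with vincristine, at 49.8 ± 9.00 CPM per kb (SD, n = 4) in WT, followed by BAD at 16.6 ± 1.67 and BBC3 at 11.1 ± 2.79. Before treatment BAD was the highest, at 19.0 ± 0.321 CPM per kb, with HRK at 6.33 ± 0.511.

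BBC3 (PUMA), which binds all the main guardians, rose 5.96-fold in WT. It stood at 7.65, 5.59, 4.78 and 5.76 CPM untreated and at 42.6, 39.2, 36.2 and 22.4 CPM with vincristine (log2 2.58 ± 0.16, adjusted p = 2.72e-15). In the Control gRNA libraries it went from 8.18, 8.25, 8.46, 7.77 and 7.81 CPM to 38.9, 45.1, 45.1, 50.4 and 38.9 CPM (log2 2.43 ± 0.09, adjusted p = 1.78e-25). The groups did not overlap in either line. BCL2L11 (BIM), which binds every guardian and can activate BAX directly, went from 7.55, 7.83, 6.95 and 5.96 CPM to 44.9, 36.1, 38.6 and 34.2 CPM in WT (log2 2.44 ± 0.13, adjusted p = 1.08e-17). With the Control gRNA it went from 18.8, 19.1, 16.0, 16.9 and 18.1 CPM to 52.6, 53.3, 50.8, 51.9 and 50.4 CPM (log2 1.54 ± 0.09, adjusted p = 2.89e-19). Its groups did not overlap either. MIR4435-2HG lies over 10.9% of the exonic bases of BCL2L11 on the opposite strand, and the strand setting of the authors' counting was not given in the sources used here, so reads of the 2 genes may be mixed there.

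The other risers were lower genes. PMAIP1 (NOXA), which binds MCL1, went from 2.29, 1.58, 1.19 and 0.894 CPM to 4.46, 6.83, 6.00 and 7.87 CPM in WT (log2 2.08 ± 0.29, adjusted p = 6.64e-07). Its rise under the Control gRNA was from 3.34, 5.03, 3.83, 3.51 and 3.41 CPM to 9.10, 9.34, 10.3, 10.3 and 10.5 CPM (log2 1.38 ± 0.14, adjusted p = 4.47e-11). All vincristine libraries were above all untreated ones. BMF, which is held on the cytoskeleton by a dynein light chain in healthy cells, went from 1.15, 2.42, 1.69 and 1.99 CPM to 6.28, 5.67, 4.87 and 3.23 CPM in WT (log2 1.47 ± 0.21, adjusted p = 6.20e-07). In the Control gRNA libraries it went from 4.71, 4.10, 5.11, 5.63 and 5.65 CPM to 8.06, 7.56, 8.80, 9.47 and 10.6 CPM (log2 0.81 ± 0.17, adjusted p = 0.000137). Here too the groups were apart, and BMF-AS1 overlaps 8.46% of its exonic bases on the opposite strand. BIK, which acts at the endoplasmic reticulum, had 2 counts over the 4 untreated WT libraries and 13 over the 4 vincristine libraries, a ratio of 7.12 with a 95% exact counting interval of 1.61 to 65.0. The fit called this rise (adjusted p = 0.0235), but its groups overlapped, and the call was lost without any of 5 libraries (WT untreated replicates 1, 3 or 4, or WT vincristine replicates 1 or 3), with adjusted p from 0.0501 to 0.0900. In the fit of these WT groups alone BIK was too low to be tested. BIK was not called in the Control gRNA libraries (log2 0.25 ± 0.46, adjusted p = 0.749).

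The remaining members are controlled largely after translation. BID, which a caspase can cleave into an active form, fell from 14.5, 14.1, 16.2 and 16.1 CPM to 11.3, 8.90, 10.3 and 10.5 CPM in WT (log2 -0.57 ± 0.10, adjusted p = 1.46e-05). In the Control gRNA libraries it fell from 12.1, 12.8, 13.7, 13.4 and 13.4 CPM to 8.73, 8.90, 8.92, 8.64 and 9.56 CPM (log2 -0.55 ± 0.09, adjusted p = 3.32e-06). Every vincristine library was below every untreated one. BAD, which is switched off by survival kinases, was at 31.7 to 32.9 CPM untreated and 24.4 to 31.1 CPM with vincristine in WT (log2 -0.20 ± 0.09, adjusted p = 0.0953). BAD under the Control gRNA had a difference of 0.01 on the log2 scale with a 95% interval of -0.16 to 0.17. GPR137 on the opposite strand covers 23.7% of the exonic bases of BAD.

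WT vincristine replicate 4 had the lowest HRK, BBC3, BCL2L11, BMF and BAD and the highest PMAIP1 of its 4 libraries, and its JUN was at 289 CPM against 538 to 629 CPM in the others. Leaving out each WT library in turn left 6 to 7 of the 8 members called. The summed neural progenitor markers (NES, SOX2, PAX6 and HES1, nearly all of it NES) were higher with vincristine in some lines. Untreated and with vincristine, they were at 728 to 770 and 914 to 1940 CPM in WT. Under the Control gRNA they were at 1308 to 1397 and 2426 to 2522 CPM. The values were 196 to 261 and 472 to 588 CPM in DLK KO. For LZK KO they were 464 to 617 and 916 to 1105 CPM, and for the JUN gRNA 955 to 1078 and 1654 to 1761 CPM. They were at 114 to 119 and 109 to 115 CPM in double KO, and at 736 to 813 and 697 to 804 CPM under the ATF2 gRNA. The summed neuron markers went from 7466 to 7816 CPM untreated to 6354 to 6670 CPM with vincristine under the Control gRNA, where 5 of 8 were called lower and 1 higher, while in WT they were at 7770 to 8139 and 7988 to 8076 CPM, with 2 of 8 called in each direction. The part of either list in the results was not tested.

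**Figure D1:**
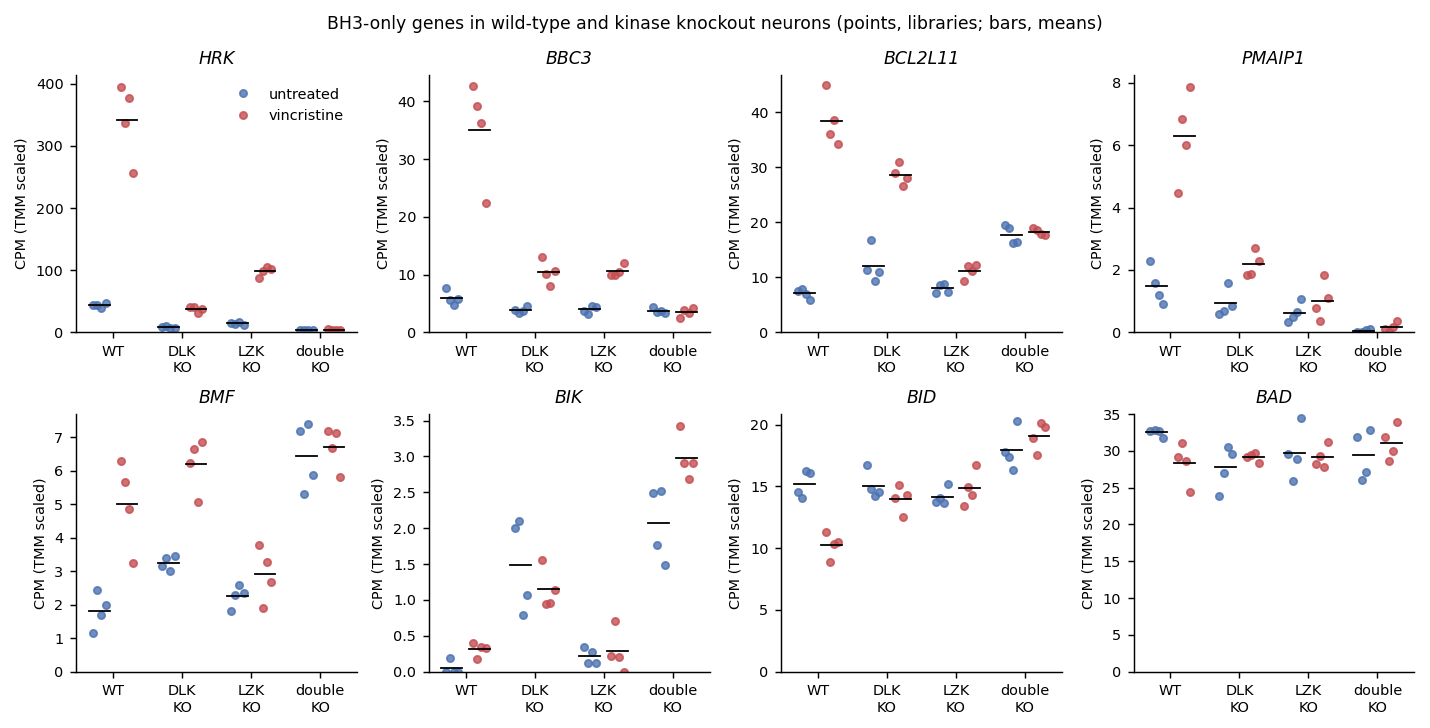
CPM of the 8 members (vertical axis, linear from 0, a scale of its own in each panel) in every library of experiment 1, untreated in blue and vincristine in red, with group means as black bars. HRK in the 4 WT vincristine libraries sits between 256 and 395 CPM, above all libraries of the other lines, while the double KO libraries of HRK all lie at or under 5.19 CPM.

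BBC3 and BCL2L11 had a smaller vincristine response in each knockout line than in WT, and HRK in DLK KO and double KO. In DLK KO 5 members rose and 0 fell, where 6.53% of all genes were called and 4.24% were called higher. In LZK KO 3 rose and 0 fell, where 3.88% of all genes were called and 2.27% were called higher. In double KO 0 of 8 were called by edgeR, where 0.0658% of all genes (12 of 18235) were called and 0.00548% (1 gene) were called higher. No member had an unadjusted p under 0.05 there, and no alternative setting called any. Against the WT response, the DLK KO response differed in 5 members, 4 of them lower, where 19.4% of all genes differed and 9.41% were lower. The LZK KO response differed in 4 members, 3 of them lower (12.4% of all genes, 6.53% lower). The double KO response differed in 5 members, 4 of them lower (19.4% of all genes, 10.2% lower). These comparisons share the WT libraries.

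HRK rose in either single knockout, from a lower level than in WT. In DLK KO it went from 8.13, 9.77, 6.45 and 7.21 CPM to 40.8, 40.2, 31.4 and 38.1 CPM (log2 2.25 ± 0.14, adjusted p = 3.71e-14). In LZK KO it went from 15.1, 14.1, 17.1 and 11.9 CPM to 87.4, 98.0, 105 and 102 CPM (log2 2.75 ± 0.13, adjusted p = 2.84e-17). In double KO it was at 3.22, 3.93, 3.19 and 3.35 CPM untreated and 5.19, 3.41, 4.60 and 3.57 CPM with vincristine (log2 0.27 ± 0.20, adjusted p = 0.810). The groups were apart in both single knockouts and overlapped in double KO. On the log2 scale the response was below that of WT by a difference of -0.72 ± 0.18 in DLK KO (adjusted p = 0.00417) and -2.71 ± 0.24 in double KO (adjusted p = 9.41e-11). In LZK KO the difference of -0.23 was not called (95% interval -0.56 to 0.10, adjusted p = 0.403). In CPM, a measure added after the values were seen, the mean rise was 298 ± 30.9 CPM (SE) in WT. It was 29.7 ± 2.27 for DLK KO (9.98% of the WT rise), 83.6 ± 3.98 for LZK KO (28.1%) and 0.768 ± 0.458 for double KO (0.258%). The DLK KO vincristine libraries, at 31.4 to 40.8 CPM, overlapped in HRK with the untreated WT libraries, at 38.4 to 46.6 CPM.

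The BBC3 response was lower in either single knockout. It went from 3.92, 3.29, 3.71 and 4.52 CPM to 13.0, 10.1, 7.96 and 10.7 CPM in DLK KO (log2 1.43 ± 0.19, adjusted p = 2.85e-06). It went from 3.75, 3.13, 4.63 and 4.36 CPM to 9.86, 9.98, 10.4 and 12.1 CPM in LZK KO (log2 1.40 ± 0.20, adjusted p = 7.17e-06). In double KO it was at 4.47, 3.45, 3.77 and 3.35 CPM untreated and 2.54, 3.85, 3.30 and 4.22 CPM with vincristine (log2 -0.09 ± 0.22, adjusted p = 0.944). Vincristine libraries stood above untreated ones in each single knockout and overlapped with them in double KO. Set against WT, the BBC3 response was below by a log2 difference of -1.15 ± 0.26 in DLK KO (adjusted p = 0.00144), -1.17 ± 0.26 in LZK KO (adjusted p = 0.00210) and -2.67 ± 0.27 in double KO (adjusted p = 2.40e-09).

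BCL2L11 lost more of its response in LZK KO than HRK or BBC3 did by value. It went from 11.3, 16.9, 9.28 and 11.0 CPM to 28.9, 30.9, 26.6 and 28.1 CPM in DLK KO (log2 1.25 ± 0.12, adjusted p = 2.57e-09). In LZK KO it went from 7.16, 8.54, 8.79 and 7.42 CPM to 9.31, 12.1, 11.2 and 12.2 CPM (log2 0.48 ± 0.14, adjusted p = 0.0481). In double KO it was at 19.4, 18.9, 16.3 and 16.4 CPM untreated and 19.0, 18.5, 18.0 and 17.7 CPM with vincristine (log2 0.04 ± 0.12, adjusted p = 0.949). The LZK KO groups did not overlap, but that call was lost when only these groups were fitted (adjusted p = 0.108) and without any of LZK KO untreated replicates 1, 2 or 4 or vincristine replicates 2, 3 or 4 (adjusted p from 0.0760 to 0.146). The response was below that of WT by -1.19 ± 0.18 in DLK KO (adjusted p = 5.13e-06), -1.96 ± 0.19 in LZK KO (adjusted p = 3.16e-09) and -2.40 ± 0.17 in double KO (adjusted p = 5.82e-13).

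BMF rose in DLK KO, from 3.16, 3.39, 3.01 and 3.44 CPM to 6.21, 6.66, 5.07 and 6.86 CPM (log2 0.93 ± 0.19, adjusted p = 0.00131). In LZK KO it was at 1.82, 2.29, 2.59 and 2.35 CPM untreated and 3.77, 1.90, 3.27 and 2.66 CPM with vincristine (log2 0.36 ± 0.23, adjusted p = 0.477), and in double KO at 5.29 to 7.38 CPM and 5.82 to 7.18 CPM (log2 0.06 ± 0.17, adjusted p = 0.949). The groups overlapped in LZK KO and double KO. Against the WT response the difference was -0.54 ± 0.28 in DLK KO (adjusted p = 0.184), -1.11 ± 0.32 in LZK KO (adjusted p = 0.0156) and -1.41 ± 0.27 in double KO (adjusted p = 0.000156), and the LZK KO call was lost when only the 4 groups compared were fitted (adjusted p = 0.0843).

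PMAIP1 stood at 0.574 to 1.59 CPM untreated and 1.84 to 2.71 CPM with vincristine in DLK KO, a call near the threshold (log2 1.20 ± 0.36, adjusted p = 0.0416). That call was lost without any of 7 of the 8 libraries (all but DLK KO untreated replicate 3), with adjusted p from 0.0625 to 0.154. In LZK KO it was at 0.341 to 1.06 CPM and 0.356 to 1.84 CPM (log2 0.70 ± 0.48, adjusted p = 0.505). The double KO libraries held 2 PMAIP1 counts in all untreated and 7 with vincristine, a ratio of 3.47 with a 95% exact interval of 0.661 to 34.2. No difference in PMAIP1 response from WT was called, with an adjusted p of 0.216 in DLK KO and 0.125 in LZK KO, although without LZK KO vincristine replicate 3 the latter was called (log2 -1.85, adjusted p = 0.0430). BID was called for vincristine in none of the 3 knockout lines, with log2 values of -0.11 ± 0.09, 0.07 ± 0.10 and 0.09 ± 0.09 in DLK KO, LZK KO and double KO. Its response was above that of WT by 0.47 ± 0.14 (adjusted p = 0.0129), 0.64 ± 0.14 (adjusted p = 0.00141) and 0.66 ± 0.13 (adjusted p = 0.000324), and the DLK KO call was lost with no filter on low counts (adjusted p = 0.0836). BIK and BAD were not called for vincristine in any knockout line. In double KO the BIK groups did not overlap, at 1.49 to 2.52 CPM untreated and 2.69 to 3.42 CPM with vincristine (log2 0.52, adjusted p = 0.802). The BIK response was lower than that of WT in DLK KO (adjusted p = 0.0245), but this rests on the 2 counts of untreated WT and was lost without WT untreated replicate 1, 3 or 4 (adjusted p from 0.0551 to 0.0766).

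The double KO response was below the DLK KO response in 3 members, where 1.14% of all genes differed, by -1.99 ± 0.25 for HRK (adjusted p = 4.24e-06), -1.52 ± 0.29 for BBC3 (adjusted p = 0.00270) and -1.20 ± 0.17 for BCL2L11 (adjusted p = 2.38e-05). For BMF the difference was -0.87 ± 0.25 (adjusted p = 0.0736), and it was called by DESeq2 (adjusted p = 0.0373) and when only the 4 groups compared were fitted (adjusted p = 0.00302). Against the LZK KO response it was lower in 2 members, where 0.916% of all genes differed, by -2.48 ± 0.24 for HRK (adjusted p = 4.08e-08) and -1.49 ± 0.29 for BBC3 (adjusted p = 0.00376). For BCL2L11 this difference was -0.44 with a 95% interval of -0.80 to -0.07 (adjusted p = 0.429).

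The single knockouts were then set against each other, in comparisons added after the values were seen. The LZK KO and DLK KO responses differed in 0 of 8 members by edgeR, where 0.0658% of all genes differed. BCL2L11 had the lowest p of the members, with an LZK KO response below that of DLK KO by -0.76 ± 0.19 (unadjusted p = 0.000260, adjusted p = 0.148). DESeq2 called it (adjusted p = 0.0439), as did the fit with no filter on low counts (adjusted p = 0.0294) and the fit without DLK KO untreated replicate 2 (log2 -0.96, adjusted p = 0.0248). HRK leaned the other way, at 0.49 ± 0.19 (unadjusted p = 0.0144, adjusted p = 0.549), and the other 6 members had an unadjusted p above 0.05. The levels reached with vincristine did differ, in 5 of 8 members (39.5% of all genes). HRK was 2.61-fold higher in LZK KO than in DLK KO (adjusted p = 3.42e-12). BCL2L11 was lower, at 0.391 of its DLK KO level (adjusted p = 2.13e-11), as were BMF at 0.473 (adjusted p = 2.22e-05), PMAIP1 at 0.478 (adjusted p = 0.0203) and BIK at 0.255 (adjusted p = 0.00158). The PMAIP1 call was lost without DLK KO vincristine replicate 3 or LZK KO vincristine replicate 1 or 2. BBC3 did not pass, with a log2 difference of 0.03 and a 95% interval of -0.30 to 0.36.

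**Figure D2:**
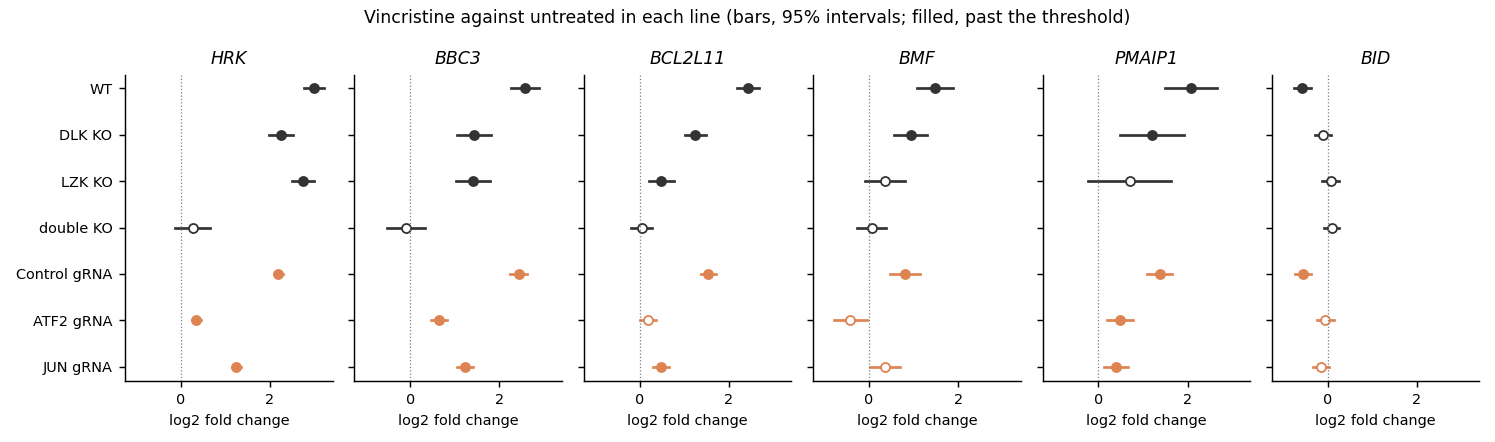
Log2 fold change of vincristine against untreated (horizontal axis) for 6 members in each of the 7 lines, with bars for the 95% interval, black for experiment 1 and orange for experiment 2, and filled points past the threshold. PMAIP1 in double KO is left out because it rests on 9 counts. HRK lies between 2.25 and 2.98 in WT, DLK KO and LZK KO and at 0.27 in double KO, and BID lies left of 0 with a filled point in WT and Control gRNA only.

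The response to vincristine was also smaller for HRK, BBC3, BCL2L11 and PMAIP1 under either guide, and for BMF past the threshold under the ATF2 gRNA. In the ATF2 gRNA neurons 3 members rose and 0 fell, where 6.1% of all genes were called and 1.88% were called higher. In the JUN gRNA neurons 4 rose and 0 fell, where 15.9% of all genes were called and 7.58% were called higher. The ATF2 gRNA response differed from the Control gRNA response in 6 members, 5 of them lower (20.6% of all genes, 10.4% lower). The JUN gRNA response differed in 5, 4 of them lower (15.8% of all genes, 7.06% lower). These comparisons share the Control gRNA libraries, and since JUN itself was at 17.1 to 23.8 CPM under the ATF2 gRNA, the ATF2 gRNA libraries have low ATF2 and low JUN together.

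HRK had the most negative difference in response under the ATF2 gRNA by value, close to that of BBC3. It stood at 44.1, 41.7, 42.3, 44.3 and 39.2 CPM untreated and at 50.2, 53.9, 58.3 and 53.0 CPM with vincristine in the ATF2 gRNA libraries, a rise of 1.27-fold (log2 0.35 ± 0.06, adjusted p = 2.38e-05). In the JUN gRNA libraries it went from 32.9, 37.3, 36.3, 36.3 and 33.5 CPM to 87.9, 82.6, 84.9, 88.5 and 71.8 CPM (log2 1.24 ± 0.05, adjusted p = 6.23e-23). The groups did not overlap under either guide. The response was below that of the Control gRNA by -1.83 ± 0.08 under the ATF2 gRNA (adjusted p = 2.61e-23) and by -0.94 ± 0.07 under the JUN gRNA (adjusted p = 4.63e-14). The ATF2 and JUN guides differed from each other by -0.89 ± 0.08 (adjusted p = 1.26e-11). In CPM the rise was 222 ± 2.86 (SE) under the Control gRNA, 11.6 ± 1.93 under the ATF2 gRNA and 47.9 ± 3.15 under the JUN gRNA, the last 2 being 5.21% and 21.6% of the first.

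BBC3 went from 15.4, 14.4, 15.0, 17.2 and 15.4 CPM to 24.2, 25.4, 22.4 and 25.0 CPM in the ATF2 gRNA libraries (log2 0.65 ± 0.09, adjusted p = 5.02e-06). In the JUN gRNA libraries it went from 7.07, 6.59, 6.54, 6.97 and 6.77 CPM to 17.1, 17.5, 17.5, 16.2 and 10.7 CPM (log2 1.22 ± 0.09, adjusted p = 3.46e-14). The groups were apart under both guides, with JUN gRNA vincristine replicate 5 below its 4 companions. The response was below that of the Control gRNA by -1.78 ± 0.13 under the ATF2 gRNA (adjusted p = 8.60e-15) and by -1.21 ± 0.13 under the JUN gRNA (adjusted p = 7.57e-10), and lower under the ATF2 than the JUN gRNA by -0.57 ± 0.13 (adjusted p = 0.00686). In CPM the 2 guides gave close rises, 24.7% and 25.3% of that under the Control gRNA, with BBC3 starting higher under the ATF2 gRNA.

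BCL2L11 was at 16.6, 21.4, 20.3, 18.6 and 18.8 CPM untreated and 20.5, 18.1, 23.1 and 26.0 CPM with vincristine in the ATF2 gRNA libraries (log2 0.20 ± 0.09, adjusted p = 0.254). In the JUN gRNA libraries it went from 9.81, 8.35, 8.42, 9.54 and 8.80 CPM to 14.6, 11.4, 13.0, 13.8 and 9.55 CPM (log2 0.47 ± 0.09, adjusted p = 0.000127). The groups overlapped under both guides. Set against the Control gRNA, the response was below by -1.35 ± 0.13 (adjusted p = 1.77e-11) and -1.07 ± 0.13 (adjusted p = 7.54e-09) under the ATF2 and JUN guides, which did not differ from each other past the threshold (difference -0.28, 95% interval -0.53 to -0.02, adjusted p = 0.340).

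PMAIP1 was at 7.37, 6.06, 5.31, 5.38 and 6.91 CPM untreated and 10.9, 8.24, 7.61 and 7.73 CPM with vincristine under the ATF2 gRNA (log2 0.48 ± 0.15, adjusted p = 0.0387). Under the JUN gRNA it was at 3.09 to 4.66 CPM and 4.06 to 6.43 CPM (log2 0.39 ± 0.14, adjusted p = 0.0497). Both calls were near the threshold, the first being lost under 5 of 15 alternatives (adjusted p up to 0.211) and the second under 11 of 16 (adjusted p up to 0.173). The libraries whose removal ended the first were ATF2 gRNA untreated replicates 2, 3 and 4 and vincristine replicate 2, and those that ended the second were JUN gRNA untreated replicates 1, 2, 4 and 5 and vincristine replicates 1, 2 and 3. Against the Control gRNA the PMAIP1 response was below by -0.90 ± 0.20 (adjusted p = 0.000866) and -0.98 ± 0.20 (adjusted p = 0.000270) under the ATF2 and JUN guides. The guides differed from each other by 0.09, with a 95% interval of -0.31 to 0.49.

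BMF was at 3.63, 4.63, 4.83, 4.87 and 3.46 CPM untreated and 2.74, 3.84, 1.61 and 4.65 CPM with vincristine under the ATF2 gRNA (log2 -0.42 ± 0.19, adjusted p = 0.216). Under the JUN gRNA it was at 4.25, 4.07, 4.47, 2.94 and 3.08 CPM and 3.98, 4.90, 5.25, 4.46 and 5.65 CPM (log2 0.36 ± 0.17, adjusted p = 0.171). Its groups overlapped under both guides. The response was below that of the Control gRNA under the ATF2 gRNA (-1.23 ± 0.26, adjusted p = 0.000270), while under the JUN gRNA it was not called (-0.45 ± 0.24, adjusted p = 0.247). The difference between the guides was -0.78 ± 0.26 (adjusted p = 0.0962). Without ATF2 gRNA vincristine replicate 5, BMF was called lower with vincristine under that guide (log2 -0.65, adjusted p = 0.0450) and the guides were called different (adjusted p = 0.0208).

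BID was called for vincristine under neither guide, with log2 values of -0.06 ± 0.10 under the ATF2 gRNA and -0.15 ± 0.09 under the JUN gRNA. Its response was above that of the Control gRNA by 0.49 ± 0.13 (adjusted p = 0.00563) and 0.40 ± 0.13 (adjusted p = 0.0266). The second call was lost with no filter on low counts and without Control gRNA vincristine replicate 1, JUN gRNA untreated replicate 2 or 3, or JUN gRNA vincristine replicate 3 (adjusted p from 0.0502 to 0.107). BIK and BAD were not called for vincristine, nor for a difference in response, under either guide. Of the 8 members, HRK and BBC3 were the 2 whose response differed between the ATF2 and JUN guides, where 2.83% of all genes differed.

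**Figure D3:**
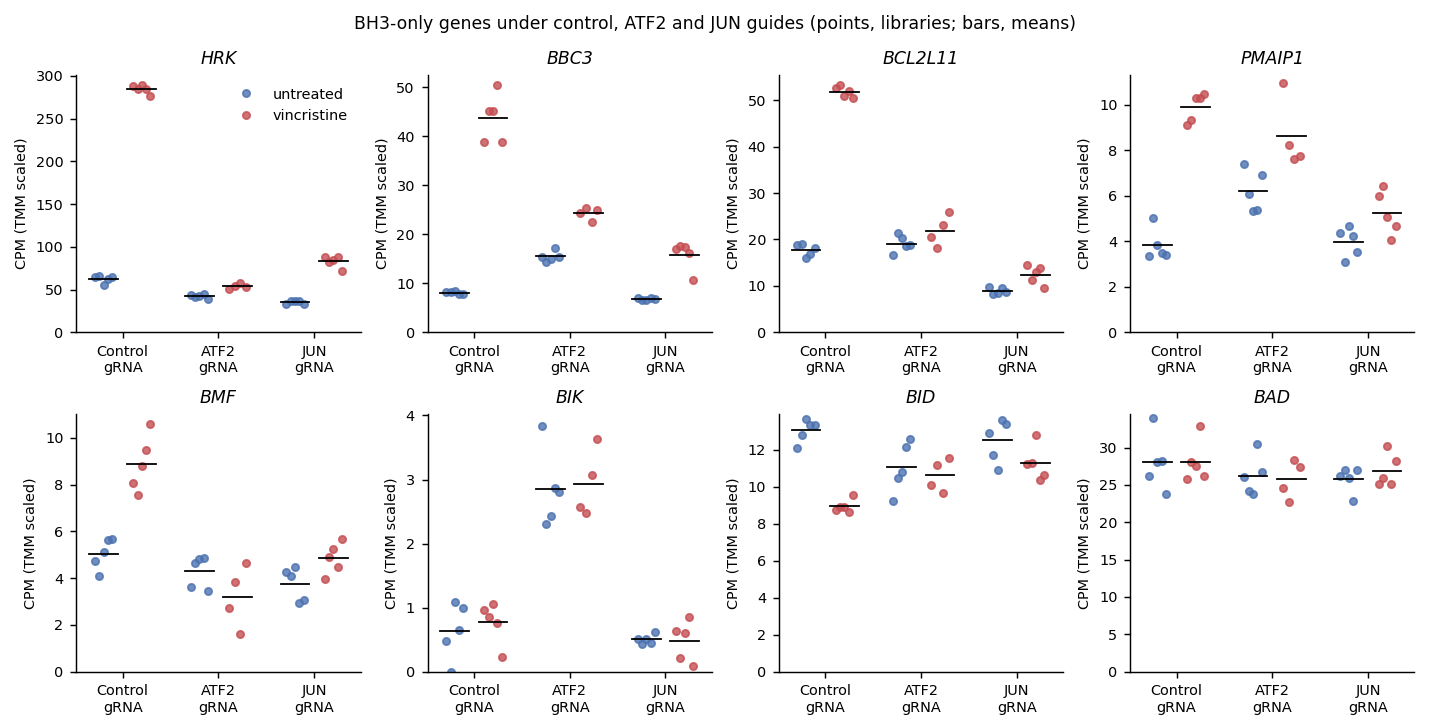
CPM of the 8 members (vertical axis, linear from 0, a scale of its own in each panel) in every library of experiment 2, untreated in blue and vincristine in red, with group means as black bars. HRK reaches 277 to 289 CPM with vincristine under the Control gRNA, 71.8 to 88.5 CPM under the JUN gRNA and 50.2 to 58.3 CPM under the ATF2 gRNA, and BBC3 starts higher under the ATF2 gRNA than under the other guides.

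The members also differed between the lines before any vincristine. Untreated DLK KO differed from WT in 6 members, 3 higher and 3 lower (34.5% of all genes called). Untreated LZK KO differed in 3, all lower (33.9% of all genes). Untreated double KO differed in 7, 4 higher and 3 lower (45.7% of all genes). HRK was lower in each line, by -2.46 ± 0.14 in DLK KO (adjusted p = 1.69e-16), -1.57 ± 0.13 in LZK KO (adjusted p = 3.93e-12) and -3.65 ± 0.15 in double KO (adjusted p = 2.98e-20), and its libraries did not overlap with those of WT. BBC3 was lower by -0.61 ± 0.20, -0.56 ± 0.21 and -0.65 ± 0.20 (adjusted p = 0.0172, 0.0332 and 0.00741), and each of these calls was lost without WT untreated replicate 1 (adjusted p = 0.0966, 0.132 and 0.0506). The DLK KO call was also lost without DLK KO untreated replicate 2, and the LZK KO call without LZK KO untreated replicate 1 or 2.

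Other members moved up. BCL2L11 was higher in untreated DLK KO (log2 0.77 ± 0.14, adjusted p = 2.46e-05) and double KO (log2 1.32 ± 0.13, adjusted p = 1.09e-10), but not past the threshold in LZK KO (log2 0.18 ± 0.15, adjusted p = 0.382). BMF followed the same order, with 0.84 ± 0.22 (adjusted p = 0.00302), 1.82 ± 0.20 (adjusted p = 1.14e-09) and 0.33 ± 0.24 (adjusted p = 0.312). BIK, at 2 counts over the untreated WT libraries, had 61 in DLK KO and 92 in double KO, which are 37.0 times (95% exact interval 9.82 to 313) and 48.2 times (13.0 to 404) the WT level after scaling to library totals. Both WT counts were in replicate 2, and BIK was at 0 in the other WT untreated libraries. Without replicate 2 the fitted log2 difference went from 4.74 to 6.97 in DLK KO and from 5.21 to 7.43 in double KO, values that depend on the prior count of the fit, and the BIK response in double KO was then called below that of WT (-4.24, adjusted p = 0.0222). LZK KO had 8 BIK counts, and the BIK difference was called there only without WT untreated replicate 2 (adjusted p = 0.0146). BID in double KO (log2 0.23 ± 0.09, adjusted p = 0.0340) and BAD in DLK KO (log2 -0.23 ± 0.09, adjusted p = 0.0456) were small differences that were lost under 6 and 8 of 14 alternatives. Among the libraries whose removal ended them were WT untreated replicates 1 and 2 for both, double KO untreated replicate 4 for BID, and WT untreated replicates 3 and 4 and DLK KO untreated replicates 1 and 2 for BAD.

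PMAIP1 was lower in untreated LZK KO (log2 -1.21 ± 0.43, adjusted p = 0.0266), a call lost without WT untreated replicate 1 or LZK KO untreated replicate 1 or 2 (adjusted p from 0.0678 to 0.113). In double KO it had 2 counts against 67 in WT, a ratio of 0.0313 with a 95% exact interval of 0.00371 to 0.118. The tested genes within 5 Mb of PMAIP1 on chromosome 18 were also low in double KO, with a median log2 difference of -1.07 over 37 genes, 31 of them called lower, against a median of 0.01 and 22.1% called lower over all genes. In LZK KO the median of these neighbours was -0.01 and 3 were called lower. The part of this chromosome stretch in the PMAIP1 difference was not tested.

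Markers of cell types also differed between the untreated lines. The summed neuron markers were at 7770 to 8139 CPM in untreated WT and 5747 to 6648 CPM in untreated DLK KO, where 5 of 8 were called lower and 1 higher, at 8046 to 8080 CPM in LZK KO and at 8396 to 8496 CPM in double KO. The summed peripheral neuron markers (3 genes) were at 4.49 to 6.04 CPM in untreated WT, 45.8 to 49.2 CPM in DLK KO, 2.77 to 3.53 CPM in LZK KO and 176 to 182 CPM in double KO. The summed pluripotent stem cell markers (4 genes) were at 2.60 to 3.35, 10.3 to 14.3, 13.2 to 18.8 and 52.9 to 59.0 CPM in the same order. Across the libraries of experiment 1 LIN28A reached 60.2 CPM and DPPA4 4.42 CPM, while POU5F1 reached 1.04 CPM and NANOG 0.484 CPM. The summed dividing cell markers (3 genes) were at 10.5 to 12.3, 16.9 to 18.1, 59.4 to 67.6 and 22.7 to 29.8 CPM. Their part in the differences between lines was not tested.

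In experiment 2 the untreated ATF2 gRNA libraries differed from the Control gRNA in 5 members, 3 higher and 2 lower (39.9% of all genes), and the untreated JUN gRNA libraries in 2, both lower (11.2% of all genes). HRK was lower under both, by -0.57 ± 0.05 (adjusted p = 9.10e-13) and -0.83 ± 0.05 (adjusted p = 7.18e-17). BBC3 was 1.91-fold higher under the ATF2 gRNA (log2 0.93 ± 0.09, adjusted p = 1.22e-11), with no overlap of the libraries, and PMAIP1 1.63-fold higher (log2 0.70 ± 0.14, adjusted p = 7.23e-05). The 46 tested genes within 5 Mb of PMAIP1 had a median log2 difference of 0.29 there, with 14 called higher and 4 lower. Over all genes the median was 0.02, and 19.7% were called higher. The part of this stretch in the PMAIP1 difference was not tested. BIK was higher as well, at 3.83, 2.31, 2.43, 2.87 and 2.81 CPM under the ATF2 gRNA against 0.478, 0, 1.08, 0.649 and 0.997 CPM (log2 2.11 ± 0.46, adjusted p = 0.000264). BCL2L11 was lower under the JUN gRNA only, at 0.506 of the Control gRNA level (log2 -0.98 ± 0.09, adjusted p = 1.78e-11), while under the ATF2 gRNA it did not pass (log2 0.11 ± 0.09, adjusted p = 0.378). BID under the ATF2 gRNA (log2 -0.24 ± 0.09, adjusted p = 0.0318) was lost under 7 of 16 alternatives, among them leaving out Control gRNA untreated replicates 3, 4 or 5 or ATF2 gRNA untreated replicates 1, 2 or 3. For BBC3 under the JUN gRNA the difference was -0.25 ± 0.10 (adjusted p = 0.0806), which DESeq2 called (adjusted p = 0.0466). The summed pluripotent stem cell markers were at 9.58 to 13.5 CPM under the Control gRNA, 33.8 to 40.2 CPM under the ATF2 gRNA and 17.3 to 19.1 CPM under the JUN gRNA, and their part in these differences was not tested. Across the libraries of experiment 2 DPPA4 reached 23.7 CPM and LIN28A 20.9 CPM, while POU5F1 reached 0.808 CPM and NANOG 0.0809 CPM.

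Baseline and response together set the level reached with vincristine. Against the WT vincristine libraries, 6 members differed in DLK KO (42% of all genes), 6 in LZK KO (42.7%) and 7 in double KO (55.6%). HRK in double KO with vincristine was at 0.0121 of its WT level (log2 -6.36 ± 0.15, adjusted p = 1.47e-27), and BBC3 at 0.100 (log2 -3.32 ± 0.18, adjusted p = 2.70e-18). BCL2L11 kept 0.745 of the WT level in DLK KO (adjusted p = 0.00185), 0.291 in LZK KO (adjusted p = 1.27e-14) and 0.476 in double KO (adjusted p = 4.15e-10), so the double KO libraries, at 17.7 to 19.0 CPM, lay above the LZK KO libraries, at 9.31 to 12.2 CPM. BID was higher than in WT in all 3 lines, by 0.45 ± 0.10, 0.53 ± 0.10 and 0.90 ± 0.10 (adjusted p = 0.000284, 4.07e-05 and 4.40e-10). BMF in double KO was near the threshold (log2 0.41 ± 0.17, adjusted p = 0.0413) and was lost under 7 of 14 alternatives, with a log2 of 0.26 without WT vincristine replicate 4. The other libraries whose removal ended it were WT vincristine replicate 3 and double KO vincristine replicates 1, 2 and 3.

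Against the Control gRNA vincristine libraries 6 members differed under the ATF2 gRNA (42.4% of all genes) and 6 under the JUN gRNA (26.7%). HRK was at 0.189 of the Control gRNA level under the ATF2 gRNA (adjusted p = 7.42e-34) and 0.292 under the JUN gRNA (adjusted p = 5.87e-30). The order was the opposite for BBC3, at 0.556 (adjusted p = 2.03e-10) and 0.363 (adjusted p = 2.76e-18), and for BCL2L11, at 0.423 (adjusted p = 1.97e-15) and 0.241 (adjusted p = 2.03e-23). Between the guides themselves 6 members differed (32.7% of all genes), with HRK lower under the ATF2 gRNA (log2 -0.63 ± 0.06, adjusted p = 4.22e-13) and BBC3 (log2 0.62 ± 0.09, adjusted p = 6.30e-07), BCL2L11 (log2 0.81 ± 0.09, adjusted p = 1.08e-09) and PMAIP1 (log2 0.72 ± 0.15, adjusted p = 9.90e-05) higher. BIK was also higher there (log2 2.59 ± 0.49, adjusted p = 4.71e-05). The 46 tested genes within 5 Mb of PMAIP1 had a median of 0.18 between these guides, with 10 called higher and 5 lower (14% of all genes higher). BMF was lower (log2 -0.59 ± 0.19, adjusted p = 0.0124), a call lost when only these groups were fitted and without ATF2 gRNA vincristine replicate 2 or 4. The BID difference under the ATF2 gRNA (log2 0.25 ± 0.10, adjusted p = 0.0350) was lost under 8 of 15 alternatives, among them leaving out Control gRNA vincristine replicates 1, 2, 3 or 4 or ATF2 gRNA vincristine replicates 3 or 5.

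**Figure D4:**
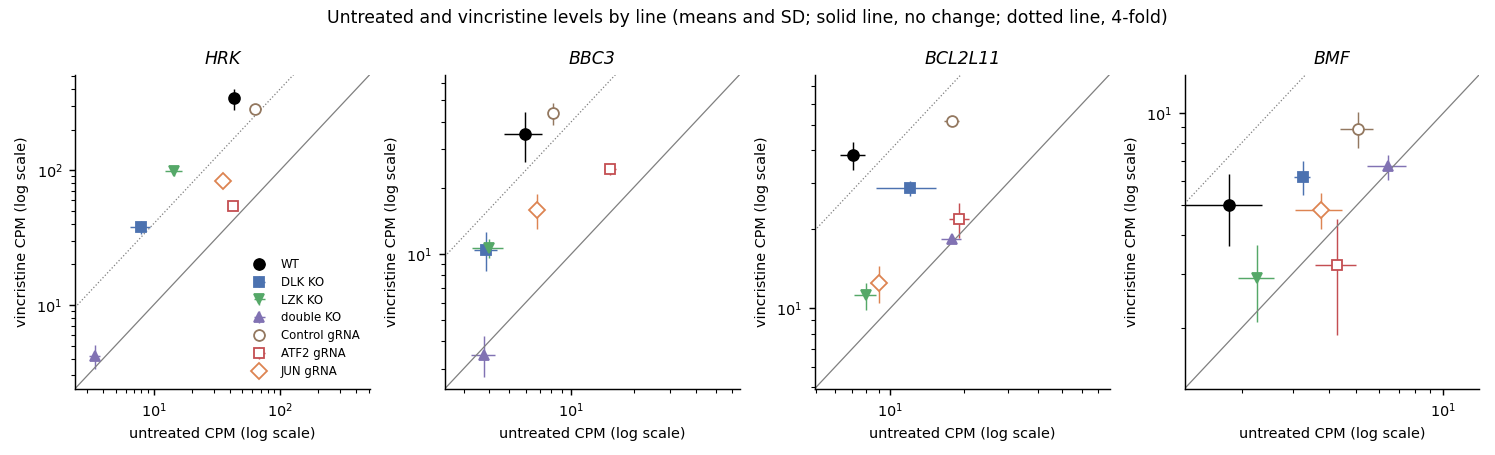
Mean CPM with vincristine (vertical, log scale) against mean CPM untreated (horizontal, log scale) for 4 members in each line, with SD bars, filled symbols for experiment 1 and open symbols for experiment 2. The solid line marks no change and the dotted line a 4-fold rise. HRK in DLK KO and LZK KO lies above the dotted line but far left of and below WT, while BCL2L11 in double KO sits on the solid line at a higher untreated level than WT (17.8 against 7.07 CPM).

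Other lists of the apoptosis pathway had medians nearer 0 in WT than the 2.26 of the BH3-only genes. Members and lists were chosen with earlier results of these data known, so this contrast is a description. The 2.26 counts BIK, whose log2 of 2.53 rests on 2 untreated and 13 vincristine counts. The share called in WT over all genes was 30.2%, with 15.7% higher and 14.5% lower. Of the guardians, 4 of 5 were tested, 0 rose and 2 fell with vincristine, with a list median of -0.05 on the log2 scale. These were BCL2L1, which encodes BCL-XL (log2 -0.34 ± 0.09, adjusted p = 0.00214), and MCL1 (log2 -0.23 ± 0.05, adjusted p = 0.000847). Both also fell under the Control gRNA, by -0.45 ± 0.05 (adjusted p = 2.57e-11) for BCL2L1 and -0.16 ± 0.03 (adjusted p = 0.000270) for MCL1, and under the ATF2 and JUN guides 0 guardians were called. The shares called over all genes were 35.3%, 6.1% and 15.9% under the Control, ATF2 and JUN guides. Of the effectors BAX, BAK1 and BOK, 0 of 3 were called in WT, with a median of 0.02. Of the apoptosome and caspase genes, 2 of 7 tested rose in WT and 0 fell, with a median of 0.09. Among them was CASP9, an initiator caspase (log2 0.43 ± 0.12, adjusted p = 0.00566).

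Of 9 transcription factors tied to BH3-only genes, 6 rose and 1 fell under the Control gRNA, where 35.3% of all genes were called. In WT 4 rose and 1 fell, with a median of 0.44, where 30.2% of all genes were called. The largest were ATF3, a partner of JUN (log2 3.98 ± 0.11, adjusted p = 4.00e-25), and DDIT3, which encodes CHOP of the integrated stress response (log2 3.14 ± 0.16, adjusted p = 1.40e-16). In double KO 0 of 9 were called, where 0.0658% of all genes (12 of 18235) were called. ATF3 was at 2.15 ± 0.13 in DLK KO (adjusted p = 1.72e-14) and 2.41 ± 0.12 in LZK KO (adjusted p = 9.68e-17), while DDIT3 was at 0.52 ± 0.18 (adjusted p = 0.0702) and 1.09 ± 0.19 (adjusted p = 0.000230).

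For each member called with vincristine in both WT and Control gRNA, the 3 genes with the most similar group means were listed, by Pearson's r of the log2 group mean over the 14 groups, centred within each experiment, among 13783 genes with a mean of at least 1 CPM in each experiment. The 14 points share libraries and controls, so r is a description. For HRK they were CD151 (r = 0.987), ATF3 (r = 0.982) and APBB3 (r = 0.981). For BBC3 they were YPEL4 (r = 0.980), ZYX (r = 0.972) and ELMSAN1 (r = 0.972). The closest to BCL2L11 were STC1 (r = 0.931), UTP25 (r = 0.916) and MIEF2 (r = 0.899), and the closest to PMAIP1 were LINC00339 (r = 0.979), SCG2 (r = 0.973) and CREB3L1 (r = 0.964). For BID they were KIF26B (r = 0.954), YKT6 (r = 0.944) and KCNC1 (r = 0.926). For BMF they were a gene with no symbol in the tables used here (ENSG00000261643.1, r = 0.919), NXF1 (r = 0.917) and ZNF763 (r = 0.910). No member was among the 3 nearest genes of another member.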

How the data were processed

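RNA from 61 libraries was measured by poly(A) RNA-seq with a stranded kit, per the labels' protocols. The authors deposited raw read counts per gene in a table for each experiment, and the count columns were matched to samples by their names. The submitters' processing notes name cutadapt 3.4, STAR, featureCounts and Subread 2.0.1 and the build GRCh38, while the strand setting of the counting was not given in the sources used here. Members and gene lists were chosen with earlier results of these data known. Of 58440 gene identifiers, 58320 had a symbol and 56992 matched GENCODE 29 in version and bounds. Counts were fitted with edgeR 4.0.16 (R 4.3.3): TMM scaling, filterByExpr by group, robust quasi-likelihood, a mean for each group, all groups of an experiment together, and Benjamini-Hochberg adjustment over all genes at 0.05. SE is the absolute log2 fold change divided by the root of F, and 95% intervals are normal intervals from it. Ratios from few counts carry exact 95% intervals, which cover counting error only. The script was checked on simulated counts. Replicate libraries were compared in 104 pairs, and 0 were identical or within sampling noise (chi-square per degree of freedom 1.59 to 40.8). Alternatives were DESeq2 1.42.0, RLE factors, low counts unfiltered or filtered at a mean of 1 CPM, a replicate block, fits of the compared groups alone, and removal of each library in turn. Genes named are all members, the targets, the 3 genes closest in pattern, and the 2 largest calls in WT from each list, except that some results under this rule are not reported here. The comparisons of LZK KO with DLK KO and the rise in CPM were added after the data were seen.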

Additional observations from a re-analysis of the deposited data

Results flagged for a closer look

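Of 112 sets of values (8 members in 14 groups) 3 held a library far from its companions by Dixon's test, where chance flags about 1 in 20 sets. These were BIK in WT untreated replicate 2 (0.186 CPM, with 0 in the other libraries), BBC3 in JUN gRNA vincristine replicate 5 (10.7 CPM) and BAD in JUN gRNA untreated replicate 4 (22.9 CPM).

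Differences in vincristine response between lines that passed edgeR's test of the difference itself, in log2 units, were as follows. DLK KO minus WT gave -0.72 for HRK, -1.15 for BBC3, -1.19 for BCL2L11, 0.47 for BID and -2.91 for BIK. LZK KO minus WT gave -1.17 for BBC3, -1.96 for BCL2L11, 0.64 for BID and -1.11 for BMF. Double KO minus WT gave -2.71 for HRK, -2.67 for BBC3, -2.40 for BCL2L11, 0.66 for BID and -1.41 for BMF. Double KO minus DLK KO gave -1.99 for HRK, -1.52 for BBC3 and -1.20 for BCL2L11. Double KO minus LZK KO gave -2.48 for HRK and -1.49 for BBC3. ATF2 gRNA minus Control gRNA gave -1.83 for HRK, -1.78 for BBC3, -1.35 for BCL2L11, -0.90 for PMAIP1, 0.49 for BID and -1.23 for BMF. JUN gRNA minus Control gRNA gave -0.94 for HRK, -1.21 for BBC3, -1.07 for BCL2L11, -0.98 for PMAIP1 and 0.40 for BID. ATF2 gRNA minus JUN gRNA gave -0.89 for HRK and -0.57 for BBC3. Some of these calls were lost under alternatives. For DLK KO minus WT these were BIK (3 of 22 alternatives), which rests on 2 untreated WT counts, and BID (1 of 22). BMF was lost in 1 of 22 for LZK KO minus WT, and BID in 5 of 26 for JUN gRNA minus Control gRNA.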

How the results depend on the processing

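No called member result changed direction under any alternative. Of the called results, 726 of 746 repeats under other tools, filters, scalings, sample sets or the block kept their call, and 1285 of 1361 did when a library was left out. Repeats in which the member did not enter the fit are not in these totals. Where DESeq2 gave no adjusted p, a repeat in the same direction was counted as kept. Most counts of members called stayed within 1.5 times the reported count. The exceptions were untreated LZK KO against WT, with 1 to 4 members called when each library was left out (3 reported), and the response of LZK KO minus DLK KO, with 1 under DESeq2, 1 with no filter on low counts and 0 to 1 when each library was left out (0 reported). The cause was not tested. Same-numbered libraries did not deviate together: the correlation of their deviations ran from -0.18 to 0.11, and 9 of the 30 untreated libraries that have a same-numbered vincristine library correlated best with it. The replicate block lost 3 of the calls and gained 0: BAD in untreated DLK KO (log2 -0.23, adjusted p = 0.0513), PMAIP1 with vincristine under the JUN gRNA (0.38, adjusted p = 0.0670) and BID in the vincristine libraries of the ATF2 gRNA against the Control gRNA (0.23, adjusted p = 0.0598). Depth limits BIK and PMAIP1 in experiment 1, where groups held as few as 2 counts.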

Other observations

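Under the ATF2 gRNA, the apoptosis genes BOK and CYCS were called with vincristine in the direction seen under the Control gRNA. The shares called over all genes were 6.1% under the ATF2 gRNA and 35.3% under the Control gRNA. BOK, a BAX-like effector chosen here after its values were seen, rose under all 3 guides, by 0.30 ± 0.08 (SE, log2) under the Control gRNA, 0.32 ± 0.09 under the ATF2 gRNA and 0.45 ± 0.08 under the JUN gRNA (edgeR adjusted p = 0.00279, 0.0149 and 4.16e-05). Its difference between the ATF2 and Control guides was 0.02 ± 0.12 (adjusted p = 0.937). CYCS, which encodes cytochrome c and was also chosen after its values were seen, fell by -0.45 ± 0.04, -0.25 ± 0.05 and -0.27 ± 0.04 under the 3 guides (adjusted p = 3.86e-12, 0.000215 and 4.94e-06), and the fall was smaller under the ATF2 gRNA than under the Control gRNA by 0.20 ± 0.06 (adjusted p = 0.0168). In experiment 1 neither BOK (log2 0.16 ± 0.15, adjusted p = 0.445) nor CYCS (log2 -0.32 ± 0.13, adjusted p = 0.0671) was called in WT.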
